A study of Mus musculus with 19 samples.

Results

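The 10 Polycomb complex genes Ezh1, Ezh2, Eed, Suz12, Jarid2, Cbx2, Cbx7, Cbx8, Bmi1 and Ring1 were followed in blood stem and progenitor cells of C57BL/6 mice. They were taken by symbol from a table of exon read counts of 25124 genes, and all 10 passed the filter on low counts, as did 14720 genes in all. Adult LMPP (3 RNA-seq libraries) and adult HSC (3 libraries) were sorted from bone marrow at 12 weeks, and fetal LMPP (3 libraries) and fetal HSC (2 libraries) from fetal liver at E14.5. HSC, hematopoietic stem cells, were gated as c-Kit+ Sca1+ CD150+ CD48- Flt3-, and LMPP, lymphoid-primed multipotent progenitors, as c-Kit+ Sca1+ Flt3+ CD48+ CD150-, each free of the mature blood markers CD3, Gr1, B220 and Ter119. The adult gates left out CD11b+ cells as well, so age, organ and this part of the gate differ together and cannot be told apart. None of the labels names a transgene or a treatment. Open chromatin came from ATAC-seq, in which a transposase tags accessible DNA, as 1 list of peaks per group made from 2 libraries each. The series' design text calls the replicates biological, and the labels do not say whether they are separate animals, litters or pools, so the p-values below measure the spread among these libraries.

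Polycomb proteins keep genes silent through 2 kinds of complex. Polycomb repressive complex 2 (PRC2) methylates histone H3 at lysine 27. It is built of a methyltransferase, Ezh2 or its relative Ezh1, with the obligate partners Eed and Suz12, and Jarid2 is an accessory subunit that helps bring it to chromatin. Canonical PRC1 holds a chromobox protein (Cbx2, Cbx7 or Cbx8 among the members) that binds the methylated lysine, a Pcgf protein such as Bmi1, and a ubiquitin ligase, Ring1 or Rnf2, that marks histone H2A. In blood, Bmi1 is known for its need in stem cell self-renewal, Ezh2 for its part in fetal liver blood formation and lymphoid development, Ezh1 for maintaining adult stem cells, and Cbx7 for favouring self-renewal over differentiation when raised in stem cells.

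Library totals ran from 19.8 to 64.8 M counts, and a member had between 164 (Cbx7 in fetal LMPP 3) and 14046 counts in a library. Values are CPM, counts relative to a library total scaled by TMM, and levels of different genes are compared only per kilobase of the transcript length in the table (RPKM). The sorted groups carried their defining markers. Of the HSC markers, Slamf1, which encodes the gated CD150, averaged 0.481 CPM in adult LMPP, 0.241 in fetal LMPP, 70.9 in adult HSC and 54.8 in fetal HSC. Procr averaged 11.8, 4.88, 63.8 and 85.8 CPM in the same groups, Mecom 21.7, 12.1, 118.8 and 237.1 CPM, and Hlf 79.5, 55.8, 154 and 185.6 CPM, with adult LMPP and adult HSC libraries of Hlf overlapping. Summed CPM of 5 LMPP markers (Flt3, Cd48, Dntt, Satb1 and Notch1) averaged 3008 in adult LMPP, 1081 in fetal LMPP, 29.52 in adult HSC and 89.43 in fetal HSC, with Dntt at 0 in every fetal LMPP library.

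The libraries adult LMPP 3, fetal LMPP 1 and adult HSC 3 stood apart from the others of their groups on the third principal component, with scores of −17.8, −44.1 and −64.1. In these libraries genes deviated by transcript length from the other libraries of the group, as seen with tested genes split into 4 length classes of equal size. The median log2 deviation of the shortest length class of tested genes (up to 1735 bases) was 0.31, 0.20 and 0.43 in the 3 libraries, and that of the longest (over 4263 bases) was −0.56, −0.33 and −0.79. Several members followed. Jarid2, at 5977 bases the longest transcript of the 10, deviated by −0.90 in adult LMPP 3, −1.02 in fetal LMPP 1 and −1.80 in adult HSC 3, whereas Cbx8, at 1386 bases the shortest, deviated by 0.53, 0.44 and 0.93. Suz12 (4355 bases) and Cbx2 (3746 bases) were low in all 3, and Eed (2046 bases) was high in all 3. Ring1 (2025 bases) was low in all 3 although its transcript is short, at −0.60, −0.26 and −0.73. Cbx7, Ezh2 and Bmi1 deviated by 0.29 or less in either direction in each of the 3. Each count of members below is therefore also given without these 3 libraries, a choice made after seeing the data, and what part the libraries play in the results was not tested.

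**Figure D1:**
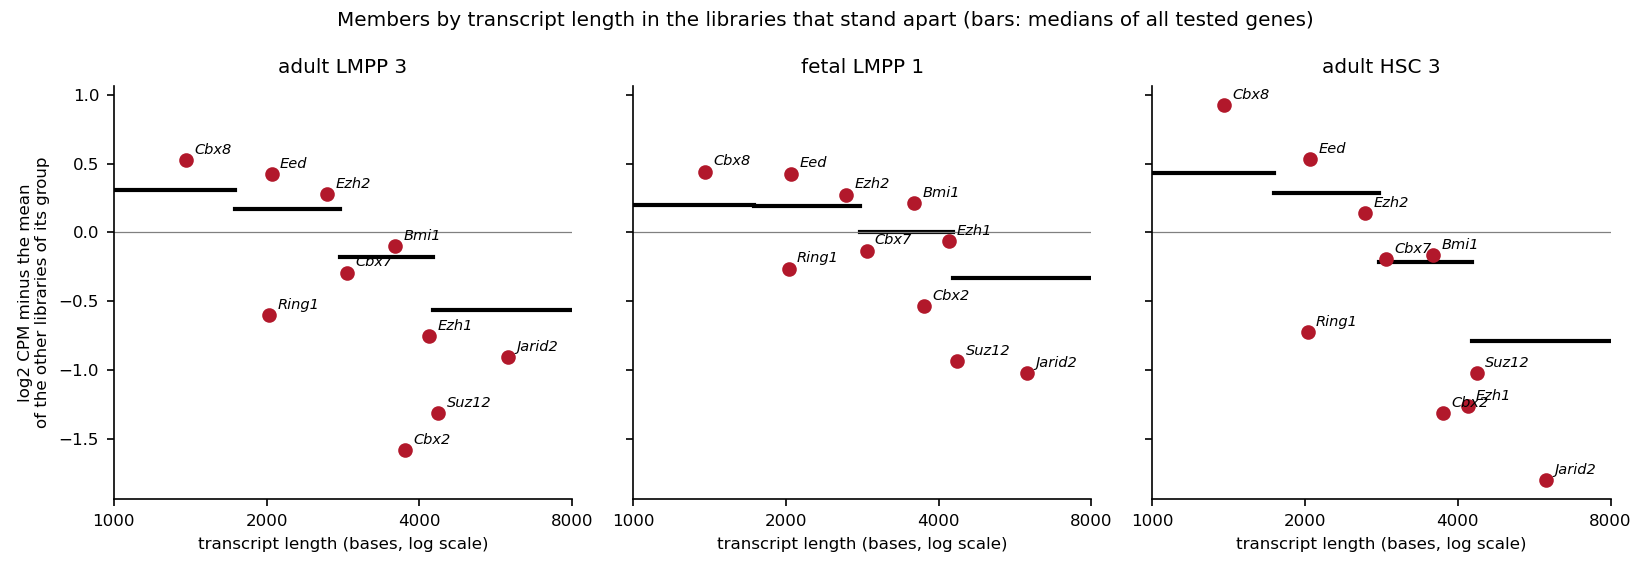
Log2 CPM of each member minus the mean of the other libraries of its group (vertical axis) against transcript length in bases (horizontal axis, log scale), in the 3 libraries that stand apart; black bars are medians of all tested genes in 4 classes of transcript length. In each panel Cbx8 and Eed lie above 0 and Suz12, Jarid2, Cbx2 and Ring1 below it, while Bmi1 and Cbx7 stay within 0.29 of it.

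Per length, Eed and Ezh2 were the most abundant members and Cbx7 and Ring1 the least. Averaged over the 4 group means, Eed stood at 82.4 RPKM, Ezh2 at 52.3, Bmi1 at 28.0, Suz12 at 21.1, Cbx8 at 12.0, Jarid2 at 10.5, Ezh1 at 9.66, Cbx2 at 9.29, Ring1 at 7.76 and Cbx7 at 6.98. Over libraries, each pair of neighbours in this order overlapped except Ezh2 and Bmi1. The averages include the libraries that stand apart, and the order of Cbx8 and Jarid2 depends on them. Bmi1 was the steadiest of the 10, with a highest library 1.30 times its lowest, and Cbx7 the most variable at 5.46 times, next to Cbx2 at 5.20 times. The lowest Cbx2 library, at 9.237 CPM, was adult HSC 3, which stands apart. Without the libraries that stand apart Cbx2 ran from 22.65 CPM (adult HSC 2) to 48.07 CPM (fetal LMPP 2).

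**Figure D2:**
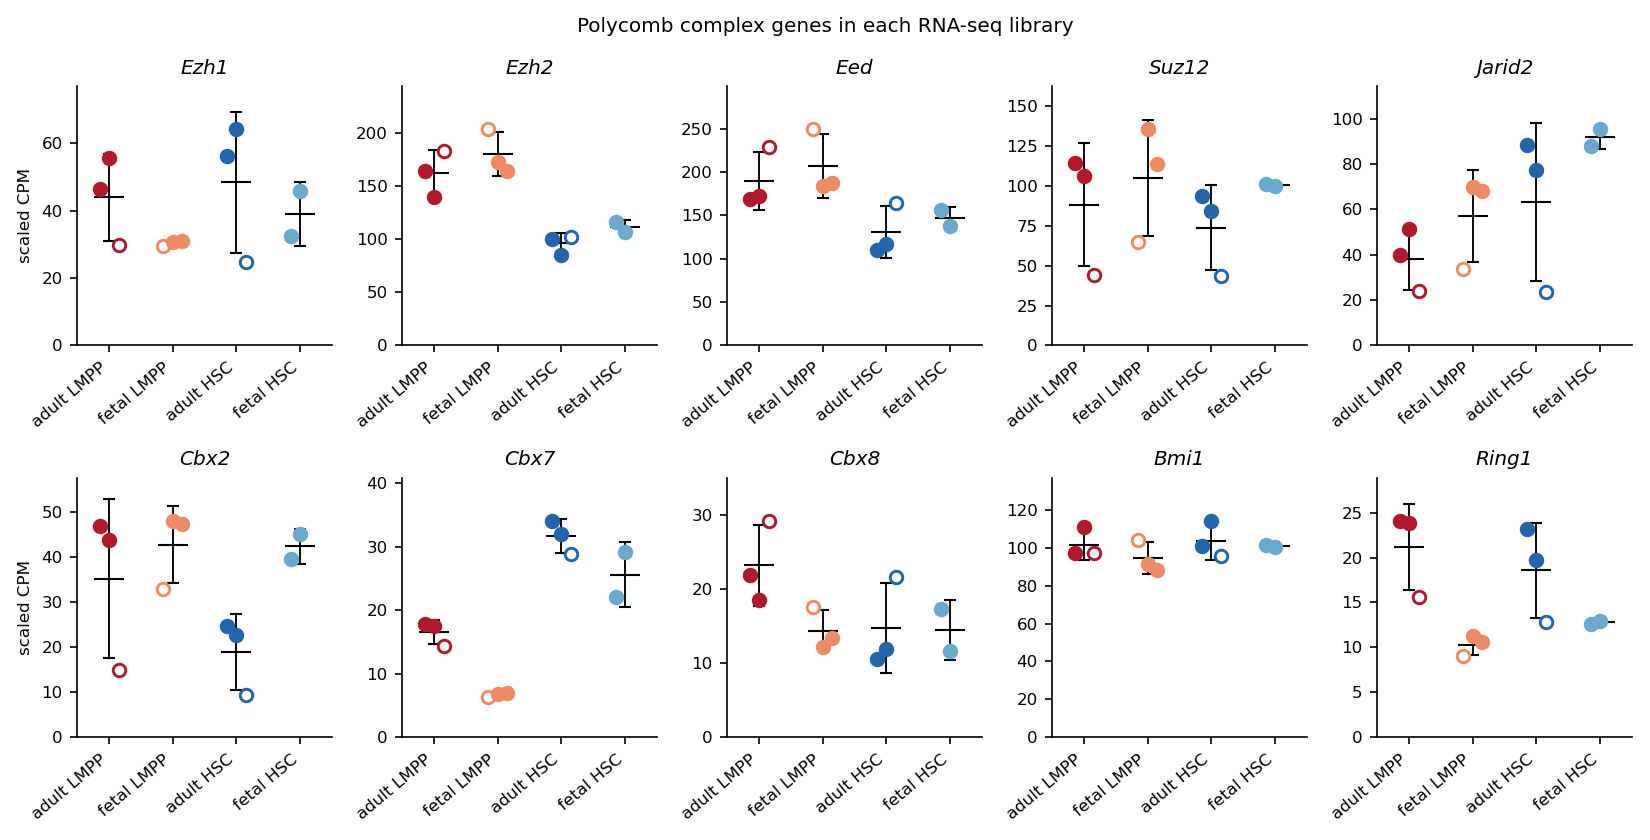
Scaled CPM (vertical axis, linear, from 0) of the 10 members in each library of adult LMPP, fetal LMPP, adult HSC and fetal HSC; bars are the group mean ± SD (n = 3, 3, 3 and 2) and hollow points are the 3 libraries that stand apart. Cbx7 is lowest in fetal LMPP at 6.252 to 6.97 CPM, next in adult LMPP and highest in HSC, where adult and fetal libraries overlap, Ezh2 is higher in every LMPP library than in any HSC library, and Bmi1 stays between 88.18 and 114.5 CPM.

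The members called in any comparison at the threshold used here (an adjusted p under 0.05 in edgeR's quasi-likelihood test, Benjamini-Hochberg over all 14720 tested genes) were Ezh2, Cbx7 and Ring1. Their promoters are shown to set what the windows hold beside the RNA values, each from 250 bases before the start site to 50 after it on the coding strand (RefSeq, GRCm38.p6), with capitals marking a CCAAT box, a GC box (GGGCGG) or an E2F-type match (GCGGGAA or GCGCCAA), on either strand.
Ezh2 (chr6:47594981-47595280, minus strand): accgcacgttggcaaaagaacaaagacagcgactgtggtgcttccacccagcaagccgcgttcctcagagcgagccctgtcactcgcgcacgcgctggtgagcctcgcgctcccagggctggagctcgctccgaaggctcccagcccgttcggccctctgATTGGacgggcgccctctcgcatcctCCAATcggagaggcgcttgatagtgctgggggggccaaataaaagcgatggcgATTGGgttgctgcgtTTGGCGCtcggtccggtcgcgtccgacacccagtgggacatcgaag
Cbx7 (chr15:79932597-79932896, minus strand): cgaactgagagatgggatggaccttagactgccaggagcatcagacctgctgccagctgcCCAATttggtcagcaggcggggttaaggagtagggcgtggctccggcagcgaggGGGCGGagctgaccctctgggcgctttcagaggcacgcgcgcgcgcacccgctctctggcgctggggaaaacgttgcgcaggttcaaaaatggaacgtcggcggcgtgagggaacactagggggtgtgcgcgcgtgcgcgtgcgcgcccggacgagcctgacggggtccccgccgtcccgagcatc
Ring1 (chr17:34024631-34024930, minus strand): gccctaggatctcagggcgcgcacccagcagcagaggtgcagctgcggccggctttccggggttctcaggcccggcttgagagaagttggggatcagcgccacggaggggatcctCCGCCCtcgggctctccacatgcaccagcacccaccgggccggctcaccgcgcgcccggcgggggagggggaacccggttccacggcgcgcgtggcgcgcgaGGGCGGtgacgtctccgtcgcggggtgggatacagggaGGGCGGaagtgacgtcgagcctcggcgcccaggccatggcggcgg
The Ezh2 window held 3 CCAAT boxes, starting 90, 64 and 11 bases before the start site, and the E2F-type letters GCGCCAA on the opposite strand 4 bases after it. Cbx7 held 1 CCAAT box 190 bases before the start and 1 GC box 136 before it, and Ring1 held 3 GC boxes. None of these matches overlapped another. RefSeq entries were found for 9 members, with 2 for Jarid2 and none for Cbx2. Of all promoters of tested genes, 3.95% held GCGCCAA (among the members Ezh2), 7.87% held GCGGGAA (Suz12), 37.8% held CCAAT (6 members) and 59.6% held GGGCGG (6 members). The ETS letters CCGGAAG, in 16.2% of those promoters, and the GATA letters AGATAA, in 7.02%, were in none of the members' windows, and the E-box CACGTG, in 9.74%, was in those of Bmi1 and Cbx8. The members' windows had 17 to 41 CG pairs, against a median of 19 over tested genes. A match describes letters only.

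Ezh2, the main methyltransferase of dividing cells, was higher in LMPP than in HSC at both ages. Its level was 164.1, 139.8 and 183.5 CPM in adult LMPP, against 100.7, 85.52 and 102.5 CPM in adult HSC. In fetal LMPP it was 203.6, 172.6 and 164.1 CPM, against 116 and 107.3 CPM in fetal HSC. Every LMPP library lay above every HSC library. The log2 difference was 0.76 ± 0.15 (SE) in adult cells (1.69-fold, adjusted p = 0.00649) and 0.69 ± 0.17 in fetal cells (1.61-fold, adjusted p = 0.02). The fetal call was lost without fetal LMPP 1 (adjusted p = 0.0559), without fetal HSC 1 (0.0968) and without fetal HSC 2 (0.177), while over all alternatives tried the log2 difference lay between 0.58 and 0.75 and the adjusted p between 0.00226 and 0.177. Between ages, Ezh2 was 0.15 ± 0.149 lower on the log2 scale in adult than in fetal LMPP and 0.21 ± 0.166 lower in adult than in fetal HSC, neither called (adjusted p = 0.554 and 0.559). The range of 2 SE around these differences ran from −0.45 to 0.15 in LMPP and from −0.55 to 0.12 in HSC. In sorted bulk cells, a change in the share of cells that make an RNA and a change in RNA per cell cannot be told apart.

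Ezh1, the methyltransferase linked to resting cells, was not called in any comparison. Its libraries were at 46.39, 55.5 and 29.93 CPM in adult LMPP, 29.41, 30.67 and 30.94 CPM in fetal LMPP, 56.11, 64.14 and 24.82 CPM in adult HSC and 32.41 and 45.74 CPM in fetal HSC. The low adult values are from the libraries that stand apart, without which Ezh1 passed the test as higher in adult than in fetal LMPP (log2 0.74, adjusted p = 0.017) and in adult than in fetal HSC (0.63, adjusted p = 0.0494). With a term for those libraries in place of leaving them out it was not called, at 0.46 (adjusted p = 0.15) and 0.45 (0.309). Per length, Ezh2 exceeded Ezh1 in every library. The ratio of Ezh2 to Ezh1 was 5.63, 4.01 and 9.76 in adult LMPP, 11, 8.95 and 8.44 in fetal LMPP, 2.85, 2.12 and 6.57 in adult HSC and 5.7 and 3.73 in fetal HSC. The highest adult values are again those of the libraries that stand apart. Leaving them aside, the ratio was lowest in adult HSC and highest in fetal LMPP. It is given as a description with no test.

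Eed, which reads the methyl mark and stimulates the enzyme, had the same order of groups as Ezh2. It stood at 169.2, 172 and 229 CPM in adult LMPP, against 109.9, 117.6 and 164.7 CPM in adult HSC, and at 249.5, 183.6 and 187.2 CPM in fetal LMPP, against 155.8 and 137.5 CPM in fetal HSC. LMPP and HSC libraries did not overlap at either age, but the differences of 0.54 ± 0.201 in adult and 0.50 ± 0.227 in fetal cells missed the threshold (adjusted p = 0.0963 and 0.155). Without the 3 libraries that stand apart both passed it, at 0.58 (adjusted p = 0.00297) and 0.33 (0.0264), and Eed was then also called lower in adult than in fetal HSC (−0.35, adjusted p = 0.04). With same-numbered adult libraries paired, Eed was called higher in adult LMPP than in adult HSC (0.55, adjusted p = 0.00447). Suz12, the scaffold that holds PRC2 together, spread from 43.56 to 135.5 CPM over the 11 libraries and was called in no comparison, with or without those libraries. Its lowest values were 44.17 CPM in adult LMPP 3, 64.69 in fetal LMPP 1 and 43.56 in adult HSC 3.

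Jarid2 was lower in LMPP than in HSC by estimate at both ages, and passed the test in both comparisons only without the libraries that stand apart. It had 39.72, 51.3 and 23.9 CPM in adult LMPP, against 88.57, 77.39 and 23.36 CPM in adult HSC. In fetal LMPP it had 33.86, 69.91 and 68 CPM, against 88.09 and 95.3 CPM in fetal HSC. The lowest value of each of the first 3 groups is the library that stands apart, and with it the adult groups overlap. With all 11 libraries the differences were −0.72 ± 0.466 (adjusted p = 0.356) and −0.68 ± 0.512 (0.39). Without those 3 libraries they were −0.87 (adjusted p = 0.00261) and −0.42 (0.0447), and Jarid2 was then called lower in adult than in fetal LMPP as well (−0.58, adjusted p = 0.0155). With a term for those libraries, the adult difference was called (−0.59, adjusted p = 0.035) and the fetal one was not (−0.33, adjusted p = 0.256). Adult over fetal LMPP was called in that fit (−0.56, adjusted p = 0.0376). With same-numbered adult libraries paired, the adult difference was not called (−0.57, adjusted p = 0.0968).

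Cbx7, a chromobox subunit of canonical PRC1, differed most among the members. It stood at 17.79, 17.54 and 14.34 CPM in adult LMPP and at 6.252, 6.836 and 6.97 CPM in fetal LMPP. In HSC it stood at 34.11, 32.05 and 28.81 CPM in adult and 22.02 and 29.21 CPM in fetal libraries. The LMPP libraries lay below all HSC libraries and, among LMPP, the fetal below the adult, while adult and fetal HSC overlapped. Cbx7 was 2.48 times as high in adult as in fetal LMPP (log2 1.31 ± 0.198, adjusted p = 0.00194). It was lower in LMPP than in HSC by 1.91-fold in adult cells (log2 −0.94 ± 0.195, adjusted p = 0.00844) and by 3.83-fold in fetal cells (−1.94 ± 0.216, adjusted p = 0.000575). These 3 calls held under every alternative tried, with adjusted p up to 0.0108, 0.0343 and 0.0103. Between adult and fetal HSC the difference was 0.30 ± 0.218 (adjusted p = 0.521), with a range of 2 SE from −0.13 to 0.74. The difference between the age effects in LMPP and in HSC was 1.00 ± 0.29 on the log2 scale (unadjusted p = 0.00571, adjusted p = 0.165) and was not called by edgeR. DESeq2's Wald test called it (adjusted p = 0.00895), as did edgeR with a term for the 3 libraries that stand apart (0.0469). Without those libraries it was not called (0.99, adjusted p = 0.0715), and 17 of 19 alternatives did not call it. Over all alternatives the adjusted p lay between 0.00895 and 0.694.

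Ring1, the less abundant of the ligases beside Rnf2, had 24.1, 23.87 and 15.65 CPM in adult LMPP, against 9.023, 11.23 and 10.62 CPM in fetal LMPP. All adult LMPP libraries lay above all fetal LMPP libraries, and Ring1 was 2.06 times as high (log2 1.04 ± 0.271, adjusted p = 0.0266). This call was lost without any one of adult LMPP 1 (adjusted p = 0.0895), adult LMPP 2 (0.0798), fetal LMPP 1 (0.0794), fetal LMPP 2 (0.0637) or fetal LMPP 3 (0.0701), with the log2 difference between 0.95 and 1.22 and the adjusted p between 0.00123 and 0.0895 over all alternatives. In HSC it had 23.21, 19.75 and 12.76 CPM in adult and 12.58 and 12.97 CPM in fetal libraries, which overlap through adult HSC 3 (log2 0.54 ± 0.304, adjusted p = 0.393). Without the 3 libraries that stand apart, Ring1 was called higher in adult cells in both comparisons, by 1.15 in LMPP (adjusted p = 0.00234) and 0.76 in HSC (0.0243). The difference between those age effects was not called in any alternative (adjusted p from 0.42 to 0.996). Rnf2, the other ligase, is in the list of further PRC1 genes below and was not called. Per length it averaged 36.86 ± 5.185 RPKM in adult LMPP, 45.0 ± 2.422 in fetal LMPP, 36.19 ± 4.039 in adult HSC and 48.4 ± 0.8712 in fetal HSC, against 10.47, 5.083, 9.172 and 6.31 RPKM of Ring1 in the same groups.

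Bmi1, the Pcgf subunit best known from stem cells, varied least among the members and was called in no comparison. Its libraries were at 97.42, 111 and 97.18 CPM in adult LMPP, 104.3, 91.86 and 88.18 in fetal LMPP, 100.9, 114.5 and 95.67 in adult HSC and 101.6 and 100.4 in fetal HSC. The libraries of all 4 groups overlapped. The log2 differences were 0.10 ± 0.135 for adult over fetal LMPP, 0.04 ± 0.151 for adult over fetal HSC, −0.03 ± 0.135 for adult LMPP over adult HSC and −0.09 ± 0.15 for fetal LMPP over fetal HSC. Ranges of 2 SE around these differences reached −0.39 at the lowest and 0.37 at the highest. Per length, Bmi1 stood at 2.29 to 3.51 times Ring1 in adult LMPP, 4.62 to 6.54 times in fetal LMPP, 2.46 to 4.24 times in adult HSC and 4.38 to 4.57 times in fetal HSC.

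Cbx2, another chromobox subunit, had its lowest mean in adult HSC. It had 24.69, 22.65 and 9.237 CPM there, against 39.6 and 45.18 CPM in fetal HSC, and 46.94, 43.82 and 14.83 CPM in adult LMPP, against 32.83, 48.07 and 47.34 CPM in fetal LMPP. The adult HSC libraries lay below both fetal HSC libraries, by 1.17 ± 0.489 on the log2 scale (unadjusted p = 0.0366, adjusted p = 0.227). Without the libraries that stand apart this difference was −0.83 (adjusted p = 0.00488), and Cbx2 was then also called higher in adult LMPP than in adult HSC (0.93, adjusted p = 0.00161), as it was with same-numbered adult libraries paired (0.86, adjusted p = 0.0068). Cbx8, a further chromobox subunit, had 21.88, 18.55 and 29.24 CPM in adult LMPP, 17.55, 12.19 and 13.43 in fetal LMPP, 10.52, 11.85 and 21.68 in adult HSC and 17.3 and 11.61 in fetal HSC. In the fit of 4 group means it was called in no comparison. Its adult LMPP libraries lay above those of fetal LMPP (log2 0.69 ± 0.324, adjusted p = 0.183), a difference that was called with a term for the 3 libraries that stand apart (0.68, adjusted p = 0.0239) and not without them (0.67, adjusted p = 0.0655). In adult LMPP against adult HSC it was called higher without those libraries (0.84, adjusted p = 0.03), with the term (0.70, adjusted p = 0.0221) and with same-numbered adult libraries paired (0.71, adjusted p = 0.0321).

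Per length, Cbx7 stood at 0.492, 0.52 and 1.26 times Cbx2 in adult LMPP, 0.247, 0.185 and 0.191 times in fetal LMPP, 1.79, 1.84 and 4.05 times in adult HSC and 0.722 and 0.84 times in fetal HSC. Cbx7 exceeded Cbx2 in all adult HSC libraries and in adult LMPP 3, which stands apart, and in no other library. These ratios are descriptions with no test.

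**Figure D3:**
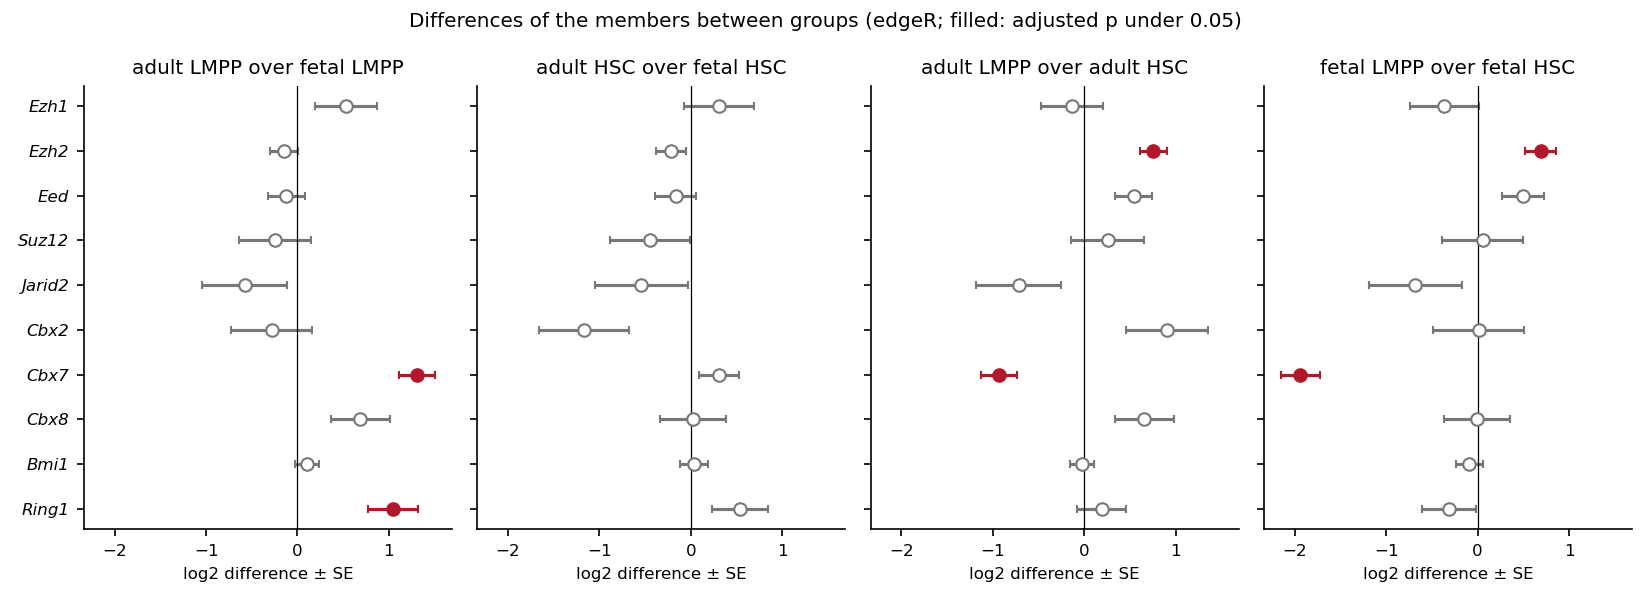
Log2 differences ± SE (horizontal axis) of the 10 members in 4 comparisons, from edgeR over all 11 libraries; filled red points have an adjusted p under 0.05. Cbx7 is called in 3 panels and Ezh2 in both comparisons of LMPP with HSC, Ring1 is called between adult and fetal LMPP, and Bmi1 lies within 0.104 of 0 in each panel.

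Counted over the members, adult over fetal LMPP gave 2 of 10 called, both higher, where 15.4% of tested genes were called in either direction. Adult over fetal HSC gave 0 of 10, where 4.95% of tested genes were called, with 1 member at an unadjusted p under 0.05 (Cbx2) and 0 called by DESeq2. DESeq2 called 885 of all tested genes higher and 650 lower there. Adult LMPP over adult HSC gave 1 higher and 1 lower of 10, where 17.1% of tested genes were called, and fetal LMPP over fetal HSC likewise gave 1 higher and 1 lower, where 18.1% were called. The difference of the age effects gave 0 of 10 with edgeR, where 0.931% of tested genes were called, with 1 at an unadjusted p under 0.05 (Cbx7) and 1 called by DESeq2. For this difference DESeq2 called 363 of all tested genes higher and 304 lower. The members' shares are near the background in the 4 pairwise comparisons. Median log2 differences of the members were −0.01, −0.07, 0.22 and −0.05 in those 4 comparisons in that order, against 0, 0, −0.05 and −0.08 over all tested genes. Leaving out the 3 libraries that stand apart gave 3 higher and 1 lower for adult over fetal LMPP (30.5% of tested genes called), 2 higher and 2 lower for adult over fetal HSC (16.2%), 4 higher and 2 lower for adult LMPP over adult HSC (29.8%) and 2 of each for fetal LMPP over fetal HSC (38.4%), and 0 for the difference of the age effects (5.46%). With a term for those libraries in place of leaving them out, the counts were 3 higher and 1 lower (33.9% of tested genes called), 1 higher and 2 lower (13.1%), 4 higher and 2 lower (32.0%) and 2 higher and 1 lower (32.5%) in the same order, and 1 higher for the difference of the age effects (5.82%). In a fit of the adult libraries alone with same-numbered libraries paired, adult LMPP over adult HSC gave 4 higher (Ezh2, Eed, Cbx2 and Cbx8) and 1 lower (Cbx7), where 31.9% of 13637 tested genes were called. For comparison with the statements on overlap above, the libraries of the groups did not overlap for 34.7% of tested genes between adult and fetal LMPP, 41.0% between adult and fetal HSC, 31.8% between adult LMPP and adult HSC and 60.9% between fetal LMPP and fetal HSC. The shares of tested genes called in each fit are also the background for the gene lists below. They hold for the adjusted threshold only. Counts at an unadjusted p under 0.05, here and below, stand without a share of all tested genes and are not read as a result. The comparisons share groups, so they are not independent of each other.

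Genes of cell division were called in the same directions as Ezh2 between LMPP and HSC. Of 31 such genes (replication factors, mitotic kinases and cyclins), 15 were higher and 0 lower in adult LMPP than in adult HSC, 14 higher and 0 lower in fetal LMPP than in fetal HSC, 0 higher and 7 lower in adult than in fetal LMPP, and 0 called between adult and fetal HSC (4 at an unadjusted p under 0.05). The median log2 differences of the 31 genes were 0.68, 0.74, −0.34 and −0.28 in these comparisons. The shares of all tested genes called, in either direction, were 17.1%, 18.1%, 15.4% and 4.95% in the same order. Without the libraries that stand apart the numbers of the 31 genes were 22 higher, 23 higher, 11 lower and 1 higher with 3 lower, and in the paired fit of adult libraries 26 were higher and 0 lower in LMPP. Among those with the lowest adjusted p were the cyclin Ccna2 in adult cells (log2 1.01, adjusted p = 0.00396) and the helicase subunit Mcm7 in fetal cells (0.86, adjusted p = 0.00261). Their summed CPM averaged 9199 ± 534 in adult LMPP, 11780 ± 761 in fetal LMPP, 6056 ± 724 in adult HSC and 7248 ± 904 in fetal HSC. Per 1000 CPM of this sum, Ezh2 had 16.2 to 18.9 CPM in adult LMPP, 14.8 to 16.1 in fetal LMPP, 15.2 to 16.3 in adult HSC and 14.7 to 16.2 in fetal HSC, so the ranges of fetal LMPP, adult HSC and fetal HSC overlapped, and that of adult LMPP met the HSC ranges at its lowest library and reached higher. Cbx7 had 1.48 to 2.03, 0.496 to 0.627, 4.56 to 6.12 and 2.79 to 4.42 CPM per 1000 in the same groups. What part cell division plays in the level of either gene was not tested.

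**Figure D4:**
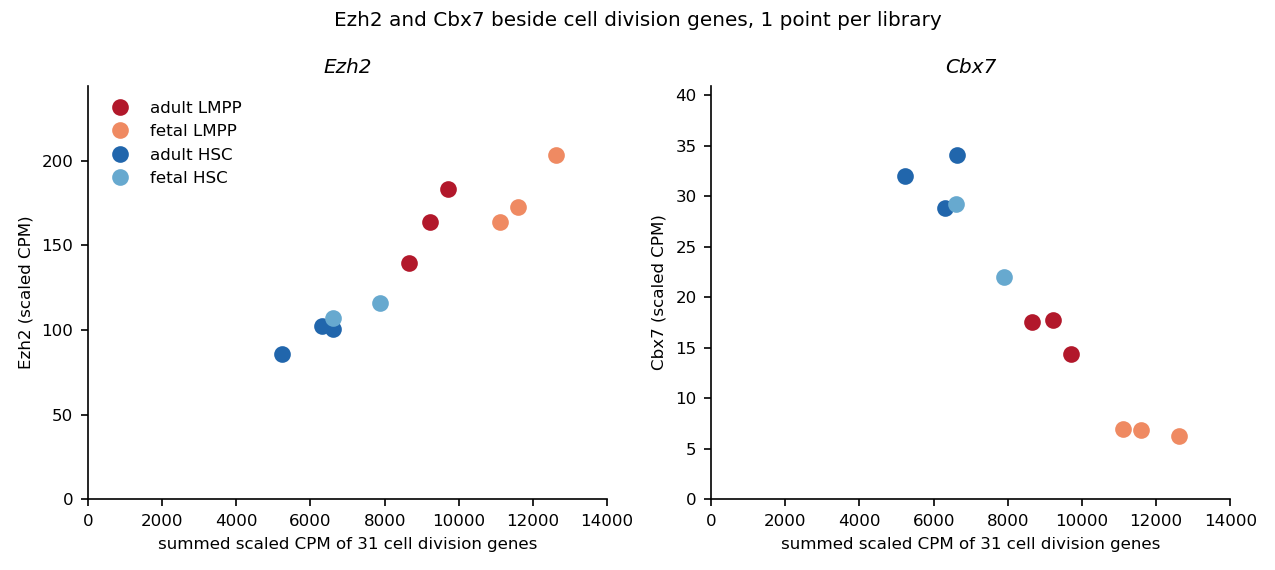
Scaled CPM of Ezh2 (left) and Cbx7 (right) against the summed scaled CPM of 31 cell division genes, 1 point per library, coloured by group; all axes are linear and start at 0. Ezh2 is higher and Cbx7 lower in libraries with a larger sum, with fetal LMPP at the right and adult HSC at the left.

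Over the 11 libraries, genes whose log2 CPM was among the most like that of Ezh2 were Cdca4 (Pearson r = 0.989) and the mitotic kinase Aurkb (0.984). For Cbx7 the most alike were the transcription factor Dach1 (0.987), Eps8l2 (0.986) and the meiotic cohesin Rec8 (0.984), and for Ezh1 they were the NF-kappaB subunit Rela (0.956), the kinase Lats2 (0.953) and Ttc17 (0.95). Among the members themselves Ezh2 went with Eed (r = 0.898) and against Cbx7 (−0.882), and Suz12 went with Cbx2 (0.901), both of which are low in the libraries that stand apart. These values describe 11 libraries of 4 groups that share group differences, depth and the length pattern, and carry no test.

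Of 8 other PRC2 genes tested, 1 was higher and 1 lower in adult than in fetal LMPP, 1 higher in adult LMPP than in adult HSC, and 1 higher and 2 lower in fetal LMPP than in fetal HSC. The shares of all tested genes called were 15.4%, 17.1% and 18.1% in these comparisons, and 4.95% between adult and fetal HSC. Rbbp4, a histone chaperone that PRC2 shares with other complexes, averaged 560.5 ± 44.1 CPM in adult LMPP and 824.6 ± 62.1 CPM in fetal LMPP (log2 −0.56 ± 0.15, adjusted p = 0.0313), and in fetal LMPP it exceeded fetal HSC, at 438.7 ± 103 CPM (0.91 ± 0.172, adjusted p = 0.00633). Phf1, a Polycomb-like accessory subunit, was called like Cbx7 as higher in adult than in fetal LMPP and lower in fetal LMPP than in fetal HSC. It averaged 9.463 ± 2.54 CPM in adult LMPP and 3.74 ± 0.177 CPM in fetal LMPP (1.34 ± 0.335, adjusted p = 0.0225), against 15.84 ± 5.06 CPM in adult HSC and 11.58 ± 4.86 CPM in fetal HSC (fetal LMPP over fetal HSC −1.63 ± 0.363, adjusted p = 0.013). Phf19, its relative, was lower there as well (−1.14, adjusted p = 0.0204), and Epop was higher in adult LMPP than in adult HSC (1.19, adjusted p = 0.0121). Between adult and fetal HSC 0 of the 8 were called by edgeR, with 2 at an unadjusted p under 0.05. Without the libraries that stand apart, higher and lower numbered 1 and 2 for adult over fetal LMPP, 0 and 3 for adult over fetal HSC, 2 and 0 for adult LMPP over adult HSC (2 and 1 in the paired fit) and 3 and 2 for fetal LMPP over fetal HSC.

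Of 10 further genes of canonical PRC1, 0 were called between adult and fetal LMPP (2 at an unadjusted p under 0.05) or between adult and fetal HSC (2), 1 was lower in adult LMPP than in adult HSC and 3 were lower in fetal LMPP than in fetal HSC. Among all tested genes, 15.4%, 4.95%, 17.1% and 18.1% were called in these comparisons in that order. Phc1, a polyhomeotic subunit, averaged 16.09 ± 4.07 CPM in adult LMPP, against 33.46 ± 14.1 CPM in adult HSC (log2 −1.05 ± 0.319, adjusted p = 0.045), and 19.99 ± 2.2 CPM in fetal LMPP, against 52.14 ± 2.77 CPM in fetal HSC (−1.38 ± 0.347, adjusted p = 0.0214). The others were Scml4 (−2.29, adjusted p = 0.0439) and Cbx6 (−1.29, adjusted p = 0.0461). Of 16 genes of variant PRC1, complexes that lack the chromobox proteins of canonical PRC1, Pcgf5 was higher in adult than in fetal LMPP (0.76 ± 0.154, adjusted p = 0.00891). Pcgf5 was also higher in adult LMPP than in adult HSC (0.67 ± 0.153, adjusted p = 0.0139). It averaged 113 ± 4.56 CPM in adult LMPP, 66.94 ± 8.56 in fetal LMPP, 71.22 ± 8.09 in adult HSC and 57.95 ± 6.76 in fetal HSC. L3mbtl2 was lower in adult than in fetal LMPP (−0.64, adjusted p = 0.0322), Auts2 was higher in adult LMPP than in adult HSC (1.74, adjusted p = 0.0277), and 0 of the 16 were called between fetal LMPP and fetal HSC (4 at an unadjusted p under 0.05) or between adult and fetal HSC (3). Without the libraries that stand apart, the canonical list gave 3 higher and 0 lower for adult over fetal LMPP, 1 and 1 for adult over fetal HSC, 1 and 3 for adult LMPP over adult HSC and 1 and 4 for fetal LMPP over fetal HSC, and the variant list 1 and 1, 2 and 1, 4 and 2, and 3 and 2. In the paired fit of adult libraries the canonical list gave 1 higher and 3 lower in LMPP and the variant list 4 and 1.

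Of 10 tested genes that remove Polycomb marks, those of the H2A deubiquitinase complex and the H3K27 demethylases, 0 were called in any comparison by edgeR and 0 had an unadjusted p under 0.05. Other fits called a few of them. Leaving out the libraries that stand apart, 1 was lower in adult than in fetal HSC and 1 higher in adult LMPP than in adult HSC. A term for those libraries gave the same 2 counts and 2 lower in adult than in fetal LMPP, and the paired fit of adult libraries gave 2 higher in LMPP than in HSC. Of 12 Trithorax group genes, which maintain active genes, Kmt2c was higher (log2 0.74, adjusted p = 0.0479) and Ash2l lower (−0.52, adjusted p = 0.0366) in adult than in fetal LMPP. In fetal LMPP against fetal HSC Ash2l was higher (0.60, adjusted p = 0.0317) and 3 were lower, among them Kmt2a (−1.18, adjusted p = 0.0288) and Ash1l (−1.04, adjusted p = 0.0203). In adult LMPP against adult HSC 0 were called, with 2 at an unadjusted p under 0.05, and between adult and fetal HSC likewise 0, with 1. The shares of all tested genes called were 15.4% between adult and fetal LMPP and 18.1% between fetal LMPP and fetal HSC. They were 17.1% between adult LMPP and adult HSC and 4.95% between adult and fetal HSC. Without the libraries that stand apart, the Trithorax list gave 3 higher and 2 lower for adult over fetal LMPP, 0 for adult over fetal HSC, 1 and 1 for adult LMPP over adult HSC (0 and 1 in the paired fit) and 2 and 3 for fetal LMPP over fetal HSC.

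Of 27 textbook targets of Polycomb silencing, 19 did not pass the filter on low counts. Of these 10 were at 0 in all 11 libraries, and the highest value of any was 0.4065 CPM (Eomes). Cdkn2b had 0 counts in every library and Cdkn2a 2 counts in all, and a count of 0 leaves room for a level of up to 3 counts, or 0.0498 to 0.152 CPM depending on the library. This pair encodes the cell cycle inhibitors at the locus best known as a target of Bmi1 and Cbx7. The third inhibitor, Cdkn1c, was readily detected. It averaged 4.865 ± 0.46 CPM in adult LMPP and 31.54 ± 12.4 CPM in fetal LMPP (log2 −2.70 ± 0.335, adjusted p = 0.000683), against 71.95 ± 25.3 CPM in adult HSC (adult LMPP over adult HSC −3.89 ± 0.351, adjusted p = 7.29e-05) and 119.3 ± 13.5 CPM in fetal HSC (fetal LMPP over fetal HSC −1.92 ± 0.343, adjusted p = 0.00486). The order of the LMPP groups is thus opposite to that of Cbx7, while both genes were lower in LMPP than in HSC at each age. Of the 8 targets tested, 0 higher and 1 lower were called for adult over fetal LMPP, 0 for adult over fetal HSC (2 at an unadjusted p under 0.05), 1 higher and 2 lower for adult LMPP over adult HSC, and 0 higher and 5 lower for fetal LMPP over fetal HSC. Among all tested genes, 15.4%, 4.95%, 17.1% and 18.1% were called in these 4 comparisons. Hoxa7 was higher (0.72, adjusted p = 0.0282) and Hoxa10 lower (−0.97, adjusted p = 0.0346) in adult LMPP than in adult HSC, and Hoxa10 (−1.36, adjusted p = 0.0125) and Hoxb4 (−2.42, adjusted p = 0.0229) were lower in fetal LMPP than in fetal HSC. Without the libraries that stand apart, higher and lower targets numbered 2 and 2, 0 and 4, 2 and 2, and 1 and 5 in the same 4 comparisons, and 2 and 2 of 7 tested for adult LMPP over adult HSC in the paired fit.

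Markers of other cells also moved between the groups. Summed CPM of 9 erythroblast markers ranged from 43.45 to 93.6 in adult LMPP, 213.5 to 440.2 in fetal LMPP, 98.28 to 172.2 in adult HSC and 1007 to 1127 in fetal HSC, with Slc4a1 at 0 in all but fetal HSC. The sum of 6 T and NK cell markers ranged from 260.4 to 365.8 in adult LMPP, against 51.7 to 62.97 in fetal LMPP, and from 54.96 to 119.2 in adult HSC, against 11.29 to 11.73 in fetal HSC, with Cd3e at 0 in every group and Nkg7 making up most of it. This sum moved with Cbx7 and Ring1 between adult and fetal LMPP. For 6 megakaryocyte markers the sum ranged from 9.594 to 23.55 in adult LMPP, 18.19 to 55.58 in fetal LMPP, 611.4 to 1632 in adult HSC and 186 to 256.8 in fetal HSC, and it moved with Cbx7 between HSC and LMPP. The sum of 6 macrophage markers ranged from 58.91 to 71.64 in adult LMPP, 77 to 170.5 in fetal LMPP, 11.29 to 33.89 in adult HSC and 20.88 to 25.14 in fetal HSC, and it moved with Ezh2 and Eed between LMPP and HSC. Csf1r averaged 32.83 CPM of it in adult LMPP and 113.8 CPM in fetal LMPP, while Adgre1, C1qa, C1qb and Mrc1 averaged at most 4 CPM in each group. The median over the 6 macrophage markers went against their sum. It was −0.37 on the log2 scale for adult LMPP over adult HSC (2 called higher, 0 lower). For fetal LMPP over fetal HSC it was −0.96 (1 higher, 0 lower), and for adult over fetal LMPP 1.09 (2 higher, 0 lower). For 6 neutrophil markers the sum was 0.4548 to 0.9806 in adult LMPP, against 3.917 to 28.7 in fetal LMPP, and 0.4755 to 9.087 in adult HSC, against 3.107 to 7.777 in fetal HSC, so it was lower in adult than in fetal LMPP where Cbx7 and Ring1 were higher, with Ly6g at 0 in every library. For 6 endothelial and stromal markers it was 75.93 to 164.7 in adult LMPP, 62.19 to 100.4 in fetal LMPP, 22.69 to 53.76 in adult HSC and 88.88 to 111 in fetal HSC, moving with Ezh2 between the adult groups and not between the fetal ones, with Cdh5 at 0 in adult LMPP and Col3a1 at 0 in all but fetal HSC. For 6 B cell markers it was 61.16 to 88.28, 72.61 to 90.44, 36.93 to 80.26 and 49.16 to 63.24 in the same groups, where the fetal LMPP libraries lay above those of fetal HSC, as with Ezh2. For 7 hepatocyte markers it was 10.71 to 14.44, 10.75 to 54.89, 10.56 to 20.23 and 7.354 to 55.51, so the sums overlapped throughout. Afp made up most of the adult sums, averaging 9.106 CPM in adult LMPP and 10.44 CPM in adult HSC. Alb, Ttr and Fgb were at 0 in both adult groups, while Alb ranged from 0.8868 to 13.23 CPM in fetal LMPP and 0.236 to 13.73 CPM in fetal HSC. By edgeR, 2 of the 7 were called lower in adult than in fetal LMPP and 0 between adult and fetal HSC. The part of these cells' RNA in the members' values was not tested.

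In the ATAC-seq lists nearly all members had an open start site. A peak reached within 1 kb of the start site for 9 of 10 members in adult LMPP, 8 in fetal LMPP, 10 in adult HSC and 10 in fetal HSC, where 80.6%, 76.4%, 83.4% and 81.8% of tested genes had one. The lists hold 50579, 37156, 53068 and 48286 distinct peaks, so for fetal LMPP the shorter list and closed sites cannot be told apart. With 1 list per group there is no spread between replicates and no test. Signal values and ranks are the authors' own, and ranks describe a peak within its list. Ezh1, Ezh2, Eed, Suz12, Jarid2, Cbx2 and Cbx8 had a peak in all 4 lists, as did 72.1% of tested genes. The Ezh2 start site carried the strongest, at chr6:47594194-47595662 in adult LMPP (mm10), within the top 10.1% of peaks by signal there, 11.3% in fetal LMPP, 9.08% in adult HSC and 5.51% in fetal HSC.

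Cbx7 lacked a listed peak in fetal LMPP, the group with its lowest RNA. Its start site peak lay at chr15:79932146-79933248 in adult LMPP with a signal of 4.163, which ranked 94.3% of the way down that list, and was listed in adult HSC (7.82, at 66.0%) and fetal HSC (5.298, at 78.3%). The only other region within 10 kb of the gene, chr15:79927482-79928140 inside it, was likewise in those 3 lists (signal 5.299, 12.79 and 6.623 in adult LMPP, adult HSC and fetal HSC) and not in that of fetal LMPP. Bmi1 shared the pattern at its start site, without any difference called in its RNA, and so did 4.06% of tested genes. Ring1 went the other way. Its start site peak was missing from the adult LMPP list, the group with its highest RNA mean, and present in the others at signals of 3.697 to 4.865, a pattern of 1.45% of tested genes.

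**Figure D5:**
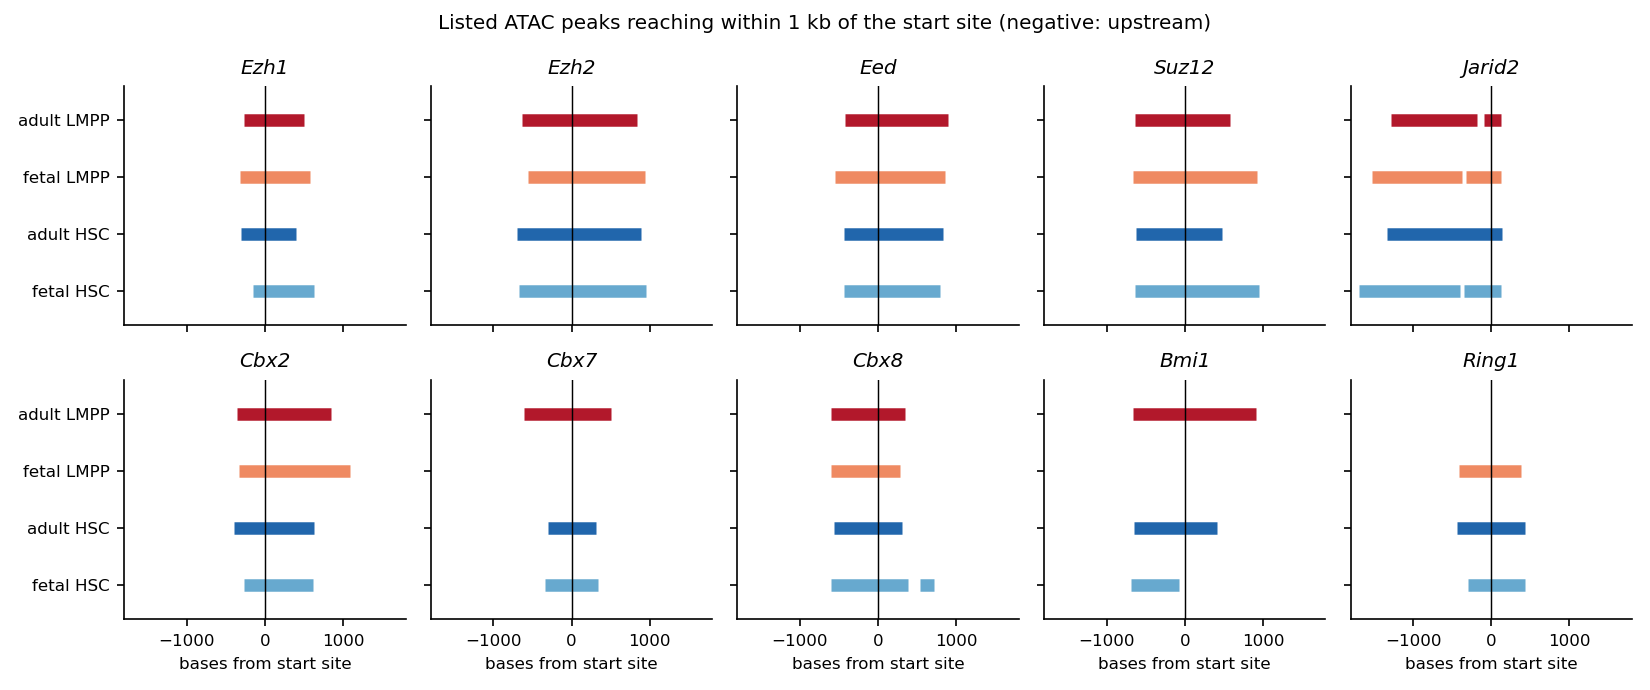
Peaks that reach within 1 kb of each member's start site, drawn as bars by distance in bases from it (horizontal axis, negative upstream), with 1 row for each of the adult LMPP, fetal LMPP, adult HSC and fetal HSC lists. Cbx7 and Bmi1 have no bar in the fetal LMPP row and Ring1 none in the adult LMPP row, while the other 7 members have a bar in all 4 rows.

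Within 10 kb of the 10 genes, 32 distinct regions were listed in at least 1 group. Of them 62.5% were in the adult LMPP list, 46.9% in that of fetal LMPP, 71.9% in that of adult HSC and 75.0% in that of fetal HSC, against 64.6%, 47.3%, 67.2% and 61.6% of all 77133 regions, and 31.2% were in all 4 lists, against 30.7%. Jarid2, which spans the most sequence, had 8. The strongest region of any member lay inside Jarid2, 138526 bases past its start site (chr13:44869501-44870094), and was in all 4 lists with signals of 28.53 in adult LMPP, 29.37 in fetal LMPP, 26.47 in adult HSC and 31.17 in fetal HSC. Jarid2 also had regions listed in a single group, at chr13:44819227-44819752 in adult LMPP (signal 9.685) and at chr13:44833208-44833686 in fetal HSC (5.442). Regions near Bmi1, Cbx2 and Ring1 also lie within 1 kb of the start sites of neighbours, so they cannot be assigned to one gene. The neighbours are Commd3 for Bmi1, Cbx8 for Cbx2, and H2-Ke6, Rxrb and Slc39a7 for Ring1. The start site peak of Ring1 itself lies within 1 kb of the start sites of Mir219c and Mir219a-1.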

How the data were processed

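RNA was converted with SMART-Seq v4 and Nextera XT, per the labels' protocols, which keep neither strand nor molecular identifiers, so overlapping genes can share reads. The RNA values are deposited expected counts of exon reads per gene, not normalized, per the file headers. They were rounded, since 22.5% were fractional. The submitters' processing notes list Bowtie2 2.3.5, SAMtools 1.9, Picard, MACS2, HOMER, STAR, RSEM, Trim Galore and DESeq2, with mm10 among the builds and no roles. Peaks were used as the authors deposited them, with coordinates, a signal value per peak and a −log10 q value, from 1 list of reproducible peaks per group, and lines of several summits were merged.

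Counts were filtered with filterByExpr, scaled by TMM and fitted with edgeR 4.0.16 (R 4.3.3) as means of 4 groups over 11 libraries, with contrasts adult over fetal and LMPP over HSC and their interaction. Each adjusted p is from edgeR unless DESeq2 (1.42.0) is named. log2 CPM for likeness used an offset of 0.5. Counting limits cover counting error only. Peaks within 1 kb of the start of a gene's row were counted as at its start site, and regions within 10 kb as near it. Alternatives covered scaling, test, filters, rounding, libraries left out and the replicate number. Same-numbered adult LMPP and adult HSC libraries deviated together in each of 3 pairs (r over 0.1) and are taken as pairs in an added fit. Differently numbered libraries did so too, adult LMPP 1 with adult HSC 2 (r = 0.308) and adult LMPP 2 with adult HSC 1 (0.408). Fetal LMPP 1 correlated with adult LMPP 3 at 0.493 and with adult HSC 3 at 0.499, and all 3 are libraries that stand apart. These correlations cannot tell which of the libraries numbered 1 and 2 belong together. A shared source and the length pattern of both adult libraries numbered 3 cannot be told apart either. The paired fit is therefore not independent of the fits that set those libraries aside. The pairing by number is from the data, not the labels. The members and gene lists were chosen with earlier results of these data known. Of each list the genes named are up to 3 called with the lowest adjusted p in a comparison, and the text gives some of them. Ezhip found no row in the table. Some results the rules name are not reported here.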

Additional observations from a re-analysis of the deposited data

How the results depend on the processing

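Over 780 recomputed values of the 10 members in 5 comparisons, 741 kept their side of the threshold, 8 lost a call (Ring1 between adult and fetal LMPP and Ezh2 between fetal LMPP and fetal HSC, each with 1 library left out), 31 gained one and 0 called values turned round. Uncalled estimates changed sign 46 times. Leaving out 1 library at a time gave 1 to 2 members higher for adult over fetal LMPP, 1 to 3 higher and 1 to 2 lower for adult LMPP over adult HSC (without adult HSC 3 Eed, Cbx8 and Jarid2 were called, and without adult LMPP 3 Cbx2), and 0 to 1 higher for fetal LMPP over fetal HSC. Calls over all tested genes moved as well in these fits. They were 749 to 1168 higher for adult over fetal LMPP, against 1221 with all libraries. For adult LMPP over adult HSC they were 727 to 1506 higher and 891 to 1591 lower, against 1143 and 1373. For fetal LMPP over fetal HSC they were 212 to 899 higher, against 1208. Without the 3 libraries that stand apart, members higher and lower numbered 2 and 2 for adult over fetal HSC, 3 and 1 for adult over fetal LMPP, 4 and 2 for adult LMPP over adult HSC, and 2 and 2 for fetal LMPP over fetal HSC. With a term for them instead, the numbers were 1 and 2, 3 and 1, 4 and 2, and 2 and 1, and 1 member (Cbx7) had a higher age effect in LMPP than in HSC. DESeq2 also gave 1 there, where it called 363 genes higher, against 80 with edgeR. For the fits without the 3 libraries and with a term for them, the shares of tested genes called stand beside the same member counts above. The cause of these changes was not tested. The open start sites numbered 7 to 10 of the members under each distance, q value and start site tried, the RefSeq start sites without Cbx2. The interaction has no fit on only the groups compared, since it uses all 4.

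The labels do not say that a replicate number marks a shared source. Deviations of same-numbered libraries correlated at 0.306 to 0.695 in the 3 pairs of adult LMPP with adult HSC and at −0.382 to 0.221 between the other groups. The differently numbered fetal LMPP 1 correlated with adult LMPP 3 at 0.493 and with adult HSC 3 at 0.499. All 3 are libraries that stand apart, so a shared number and the length pattern cannot be told apart. Adult LMPP 1 correlated as well with adult HSC 2 (0.308) as with adult HSC 1, and adult LMPP 2 correlated with adult HSC 1 at 0.408 and with adult HSC 2 at 0.496. Pairing in the adult libraries alone, a fit added after seeing the data, gave 4 members higher and 1 lower for adult LMPP over adult HSC, and 2074 and 2282 genes in all. With the replicate block over all 11 libraries, members called were 2 higher for adult over fetal LMPP, 0 for adult over fetal HSC, and 1 higher and 1 lower in each comparison of LMPP with HSC, while calls over all genes for adult over fetal LMPP were 1111 higher and 967 lower, against 1221 and 1042 without it.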
